A study of Homo sapiens with 6 samples.

Results

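N6-methyladenosine (m6A) is a methyl mark placed on adenosines inside mRNAs. Writers deposit it in the nucleus through a complex whose core is METTL3, the catalytic subunit, paired with METTL14, which helps to bind the RNA, together with WTAP and ZC3H13, which hold the complex in place. Readers carry a YTH domain that binds the mark: YTHDF1, YTHDF2 and YTHDF3 are close paralogs of the cytoplasm, where YTHDF2 is best known for speeding mRNA decay through the Ccr4-Not deadenylase, and YTHDC1 is the nuclear reader. ALKBH5 and FTO are the demethylases known as erasers. These 10 genes, 4 writers, 4 readers and 2 erasers, were taken by their symbols from both deposited tables of a ribosome profiling experiment, by a rule that uses no measured value.

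The experiment followed translation in HEK293 cells, an established human embryonic kidney line, transfected with a control siRNA. There was 1 condition, with 3 libraries of ribosome-protected fragments (RPFs, the short RNA pieces that a ribosome shields from RNase) and 3 of total RNA, paired by replicate because both were taken from one lysate. Cells had been treated briefly with cycloheximide, which stops elongating ribosomes. No other genotype, treatment or time was compared, so levels here can be set between genes and along an mRNA but not between conditions. The labels do not state whether the replicates were separate cultures, and p-values then measure only the spread between these samples.

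The translation efficiency (TE) table gives 1 ratio of RPF to total RNA per gene and replicate for 8121 genes, and 8 of the 10 members are in it. The ribosome occupancy table gives, for 1 transcript of each gene, the RPFs at every in-frame codon of the coding sequence (CDS), the 5′UTR and the 3′UTR divided by the level of the mRNA, with the replicates combined by the authors. It has 9570 records, of which 31 with a broken list were left out, and 8 members are in it. ALKBH5 has an occupancy value only, ZC3H13 a TE only, and YTHDC1 is in neither table, so 7 members have both. Among genes chosen as marks of embryonic kidney or of this line, EYA1, LHX1, NEFL, NEFM and VIM were listed in a table and PAX2 and PAX8 were not, while 0 of 8 marks of liver, blood, endothelium and squamous epithelium were listed.

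The start codons of the members whose listed CDS had a match of the same length in GENCODE 44 lifted to GRCh37 (hg19) are shown first, because every occupancy value below is counted from them. YTHDF3 had no match and is not shown. Each line gives 12 bases before the start codon, the start codon in capitals and 12 bases after it, 5′ to 3′ on the mRNA strand; the WTAP stretch crosses a splice junction.
METTL3, chr14:21979351-21979377, minus strand: tgggagactaggATGtcggacacgtgg
METTL14, chr4:119606678-119606704, plus strand: cggagttggaacATGgatagccgcttg
WTAP, chr6:160148732-160157312, plus strand: agaggattcaagATGaccaacgaagaa
YTHDF1, chr20:61847230-61847256, minus strand: tgttcatgaagcATGtcggccaccagc
YTHDF2, chr1:29068921-29068947, plus strand: gcatatactgccATGtcagattcctac
ALKBH5, chr17:18087546-18087572, plus strand: gtcgtgggggccATGgcggccgccagc
FTO, chr16:53738085-53738111, plus strand: tttagtggcagcATGaagcgcaccccg
All 7 have A or G 3 bases before the start codon, as 85.8% of 8921 matched transcripts do. METTL14 and ALKBH5 have G right after the start codon, as 52.8% of those transcripts do, and the other 5 have T or A there.

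The 8 members with a TE lay on both sides of the median of the table, 3 of the 4 writers and 2 of the readers above it and METTL3, FTO and YTHDF3 below it. Against the median of all values, 0.383, 5 members were above and 3 below in limma on log2(TE + 0.01) with Benjamini-Hochberg adjustment over all 8121 genes at an FDR of 0.05. Among all genes 44.7% were called above and 44.6% below, 89.3% in all, so that 8 of 8 members passing is close to what most genes did. The median of the mean TE was 0.643 over the members, against 0.385 over all genes.

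Among the writers, METTL14 had TE values of 1.34, 1.15 and 1.27 in replicates 1, 2 and 3. Its mean was 1.25 ± 0.0961 (SD, n = 3), 1.68 ± 0.06 (SE) above the median on the log2 scale with an adjusted p of 8.1e-06 in limma, and 84.9% of genes had a mean TE at or below it. ZC3H13, at 1.67, 0.972 and 1.14, had almost the same mean, 1.26 ± 0.365, but its highest and lowest replicates were far apart.
ZC3H13 was 1.65 ± 0.16 above the median (adjusted p = 0.00026, limma), and the SD of its log2 values, 0.40, was at or above that of 96.5% of genes. WTAP, at 0.931, 0.939 and 0.975, averaged 0.948 ± 0.0235, 1.29 ± 0.05 above the median (adjusted p = 8.7e-06, limma). METTL3, the catalytic partner of METTL14, stood at the other end of the members with 0.173, 0.192 and 0.176, a mean of 0.180 ± 0.00972. It was 1.05 below the median (log2 difference -1.05 ± 0.05, adjusted p = 2.6e-05, limma), and 21.9% of genes had a mean TE at or below it. All 3 METTL14 replicates lay above all 3 METTL3 replicates, and the ratio of their geometric means was 6.94.

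The replicate TE values of the 3 paralogous cytoplasmic readers did not overlap. YTHDF2 had 0.678, 0.692 and 0.743, a mean of 0.705 ± 0.0341 (log2 difference from the median 0.86 ± 0.05, adjusted p = 5.0e-05, limma). YTHDF1 had 0.586, 0.585 and 0.572, a mean of 0.581 ± 0.00756 (0.59 ± 0.05, adjusted p = 0.00014, limma).
The spread of YTHDF1 was among the smallest of the table, with 2.99% of genes at or below its SD of log2 values. YTHDF3 had 0.162, 0.215 and 0.281, a mean of 0.220 ± 0.0598 (-0.81 ± 0.15, adjusted p = 0.0041, limma), and the SD of its log2 values was at or above that of 96.4% of genes. No YTHDF3 replicate reached the lowest value of YTHDF1 or YTHDF2, and the geometric mean TE was 2.71 times higher for YTHDF1 and 3.29 times higher for YTHDF2 than for YTHDF3. Each pair of the 3 readers had an unadjusted p = 0.10 in a two-sided exact permutation test, the smallest that 3 against 3 values can give. FTO, the eraser with a TE, had 0.295, 0.194 and 0.248, a mean of 0.246 ± 0.0505 (-0.64 ± 0.12, adjusted p = 0.0041, limma).

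From high to low the order of mean TE was ZC3H13, METTL14, WTAP, YTHDF2, YTHDF1, FTO, YTHDF3 and METTL3. In 4 of the 7 neighbouring pairs the replicates did not overlap, METTL14 with WTAP, WTAP with YTHDF2, YTHDF2 with YTHDF1, and YTHDF1 with FTO, and each had p = 0.10 in a two-sided exact permutation test, the smallest that 3 against 3 values can give (0.175 after Benjamini-Hochberg adjustment over the 7 pairs). ZC3H13 and METTL14 (exact permutation p = 0.90), FTO and YTHDF3 (exact permutation p = 0.60) and YTHDF3 and METTL3 (exact permutation p = 0.40) overlapped, so their order is not set beyond the replicate spread. The widest gap between neighbours, 2.40 times, lay between YTHDF1 and FTO, across the median of the table.

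**Figure D1:**
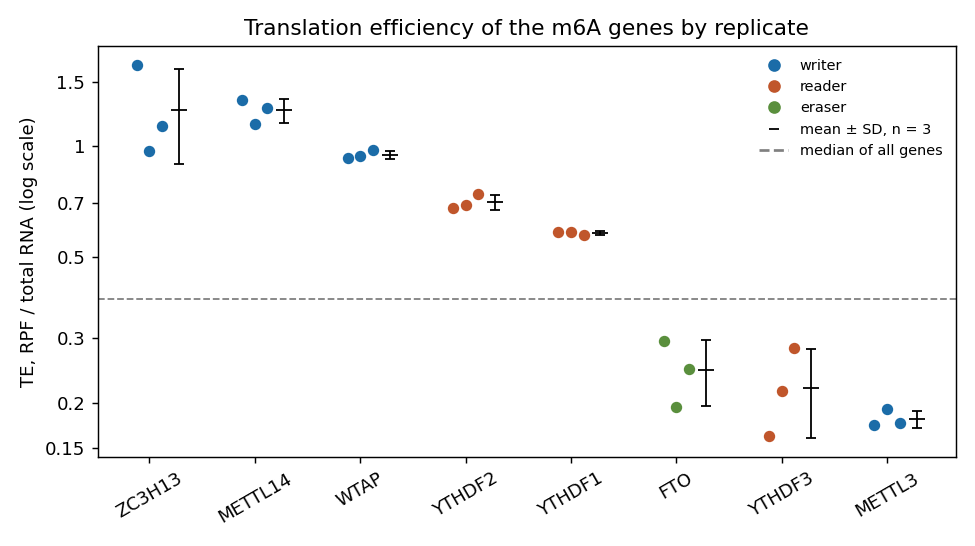
Translation efficiency (RPF to total RNA ratio, log axis) of the 8 members in the table, with points for replicates 1, 2 and 3 from left to right, the mean ± SD (n = 3) in black and the median of all values, 0.383, as a dashed line. METTL14, ZC3H13, WTAP, YTHDF2 and YTHDF1 sit above the line in all replicates, FTO, YTHDF3 and METTL3 below it.

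Numbers of RPFs could be recovered from the occupancy table. Every value of a transcript was a sum of whole multiples of 3 fixed steps, and these steps are taken here as the worth of 1 RPF in each of the 3 combined libraries. All 2869 values above 0 of the 8 members could be written this way, which returned 63036 in-frame RPFs, from 2895 for ALKBH5 to 21820 for YTHDF2. The steps were not assigned to replicate numbers. Because a step is larger the less mRNA there is, it also gives the mRNA level of each member relative to the median transcript. The intervals below are exact Poisson or, for ratios of reads, Wilson 95% intervals, and cover counting error only.

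The mRNAs of the writer complex differed widely in level. WTAP mRNA stood at 10.9 times the median transcript, METTL3 at 2.68 times and METTL14 at 0.880 times. METTL3 and METTL14 were closer in footprints than in mRNA: METTL3 had 8.92 in-frame CDS RPFs per codon (95% interval 8.68 to 9.17), from 5185 reads over 581 codons, and METTL14 had 8.07 (7.81 to 8.33), from 3686 reads over 457 codons. METTL3 mRNA was thus 3.05 times as abundant as METTL14 mRNA, while its CDS carried 1.11 times as many RPFs per codon (1.06 to 1.15). WTAP, at 91.9 RPFs per codon (90.3 to 93.4), exceeded METTL3 10.3 times and METTL14 11.4 times. The listed WTAP CDS has 152 codons against 397 in the longest annotated form, and RPFs of the forms were not separated.

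Among the readers and erasers YTHDF2 mRNA was at 5.998 times the median transcript, YTHDF1 at 2.55 times, YTHDF3 at 1.64 times, ALKBH5 at 7.48 times and FTO at 0.979 times. YTHDF2 carried 34.9 RPFs per codon (34.4 to 35.4), against 11.04 for YTHDF3 (10.8 to 11.3) and 7.44 for YTHDF1 (7.22 to 7.67). The erasers were close to each other in RPFs per codon, 6.92 for ALKBH5 (6.66 to 7.18) and 8.73 for FTO (8.47 to 8.99), although ALKBH5 mRNA was 7.64 times as abundant. METTL3, METTL14, YTHDF1, ALKBH5 and FTO all fell between 6.92 and 8.92 RPFs per codon. These values depend on depth and on the listed transcript, and they have no replicate error because the table combines the replicates.

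Divided by the mRNA level, the mean CDS occupancy of the members ranged from 0.0103 to 0.103 normalised RPFs per codon, with 5 members above and 3 below the median transcript, 0.0450. METTL14 was highest at 0.103 (0.0995 to 0.106) and 84.1% of transcripts were at or below it. FTO followed at 0.0996 (0.0967 to 0.103), WTAP at 0.0939 (0.0923 to 0.0955), YTHDF3 at 0.0746 (0.0728 to 0.0765) and YTHDF2 at 0.0648 (0.0638 to 0.0657). METTL14 and FTO overlapped in their counting intervals.
Below the median stood METTL3 at 0.0369 (0.0359 to 0.0379), YTHDF1 at 0.0324 (0.0314 to 0.0333) and ALKBH5 at 0.0103 (0.00994 to 0.0107). ALKBH5 was 0.229 times the median transcript, and 6.31% of transcripts were at or below it. For each member the 3 steps contributed similar parts of the CDS occupancy, with the smallest part 30.1% and the largest 36.5% over all 8 members. The median over codons was far under the mean in every member, at 0.00142 for ALKBH5 and 0.0379 for WTAP, since the RPFs were concentrated in part of the codons: from 7.24% of codons in WTAP to 40.5% in YTHDF1 and ALKBH5 had no read.

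TE and CDS occupancy did not rank the 7 members with both values alike. METTL14 and WTAP were high in both, METTL3 was below the median in both, and YTHDF2 was above it in both. FTO and YTHDF3 had a TE at or above only 32.6% and 28.5% of genes, but a CDS occupancy at or above 83.2% and 73.4% of transcripts. YTHDF1 went the other way, at 64.8% for TE and 34.9% for occupancy, so that YTHDF1 exceeded YTHDF3 2.71 times in TE and had 0.433 times its CDS occupancy. Across the 6884 genes in both tables the 2 measures had a Spearman coefficient of 0.69 and, on log2 values, a Pearson coefficient of 0.69; genes are not independent replicates and both measures come from the same libraries. How the TE values were formed is not stated in the methods or labels, and why the ranks differ was not tested.

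**Figure D2:**
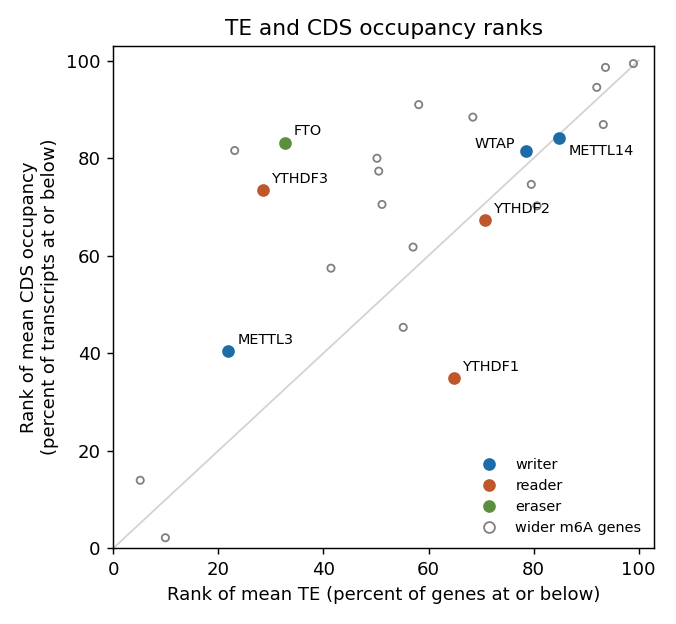
Rank of the mean TE (x axis, percent of 8121 genes at or below) against the rank of the mean CDS occupancy (y axis, percent of 9539 transcripts at or below) for the 7 members in both tables and for the wider m6A genes (open circles); the line marks equal rank. FTO and YTHDF3 lie well above the line and YTHDF1 well below it.

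Along the CDS the members differed in where the ribosomes were. METTL14 averaged 0.0778 over its first 75 codons but 0.0218 over its final 75, a ratio of last to first of 0.281 (Wilson 0.231 to 0.341) from 459 and 129 RPFs. The ratio was between 0.264 and 0.292 in the 3 steps taken singly, and 8.33% of 8755 transcripts with such windows had a ratio at or below it, the median being 1.00. From start to end, 4 equal parts of its CDS had means of 0.103, 0.151, 0.115 and 0.0427, so the fall was in the last of them. METTL3 was lower at the start than at the end, 0.0166 against 0.0420. The ratio was 2.52 (2.21 to 2.88, and 2.21 to 3.03 over the steps). Its 4 equal parts had means of 0.0174, 0.0534, 0.0307 and 0.0463, so the first was low and the second highest.

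In the erasers the end also exceeded the start. ALKBH5 had 0.00431 at the start and 0.0103 at the end, a ratio of 2.40 (2.05 to 2.81), which was 4.82 with windows of 50 codons. FTO had 0.0730 and 0.119, a ratio of 1.63 (1.46 to 1.83). WTAP had 0.0928 and 0.0956, a ratio of 1.03 (0.997 to 1.07), but its value depended on the window. With windows of 50 codons the ratio was 1.29 (1.23 to 1.34). Without the first 15 and last 5 codons it was 0.882. Those windows overlap in the listed CDS of 152 codons, so no interval is given for them.
Of the readers, YTHDF2 had a ratio of 3.15 (2.98 to 3.34), from 0.0374 at the start to 0.118 at the end. With windows of 50 codons it was 1.27, and without the highest codon of each 75-codon window it was 2.97. These windows begin at the start codon of the listed, shorter form of YTHDF2. The 32 codons before that start, read as CDS in longer forms, had a mean of 0.185. The ratio thus holds for the listed form only, and one counted from the longer start was not computed. YTHDF1 had more at the start, 0.0705 against 0.0479, a ratio of 0.679 (0.622 to 0.742). The size of this YTHDF1 ratio depended on the window. It was 0.493 with windows of 50 codons and 0.838 (0.763 to 0.920) without the first 15 and last 5 codons. YTHDF3 gave 1.31 (1.20 to 1.43), but with windows of 50 codons the ratio was 0.801, on the other side of 1.

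**Figure D3:**
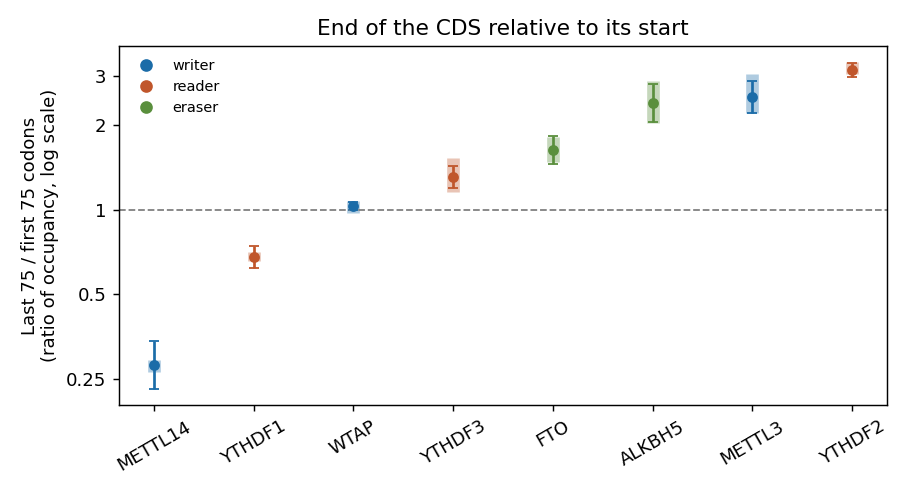
Ratio of the mean occupancy in the last 75 codons to that in the first 75 codons of the CDS (log axis) for the 8 members, with points for the combined table, whiskers for the Wilson 95% interval and shaded bars for the range over the 3 steps. METTL14 and YTHDF1 lie under the dashed line of equal occupancy, WTAP close to it and the other 5 above it. The windows are those of the listed transcripts.

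Single codons held a visible part of the CDS signal. With the first 15 and last 5 codons left out, the highest codon of YTHDF2 was codon 465 at 2.04, from 1088 RPFs, 31.5 times the CDS mean and 5.94% of all CDS occupancy. In METTL14 it was codon 272 at 1.74 (138 RPFs, 16.9 times the mean), and in METTL3 codon 236 at 0.565 (139 RPFs, 15.3 times the mean). These 3 stretches are shown because they carry the strongest position of each mRNA; capitals mark the codon to which the RPFs were assigned.
YTHDF2 codon 465, chr1:29070313-29070339, plus strand: cgacacattcgcCTAgagaacaacgag
METTL14 codon 272, chr4:119625153-119625179, plus strand: aatcctgggaagACTaagactttagat
METTL3 codon 236, chr14:21971319-21971345, minus strand: cagtccactaagGAAcaacagagcaag
In YTHDF1 the highest was codon 29 (0.863, 207 RPFs, 26.7 times the mean), in YTHDF3 codon 93 (1.09, 162 RPFs, 14.6 times), in WTAP codon 47 (0.766, 772 RPFs, 8.16 times), in FTO codon 189 (1.505, 130 RPFs, 15.1 times) and in ALKBH5 codon 271 (0.149, 97 RPFs, 14.5 times). RPFs from all 3 steps were present at each of these codons. The 10 highest codons held between 15.97% of the CDS occupancy, in METTL3, and 36.4%, in WTAP, whose listed CDS is also the shortest; over all transcripts the median was 27.3%.

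**Figure D4:**
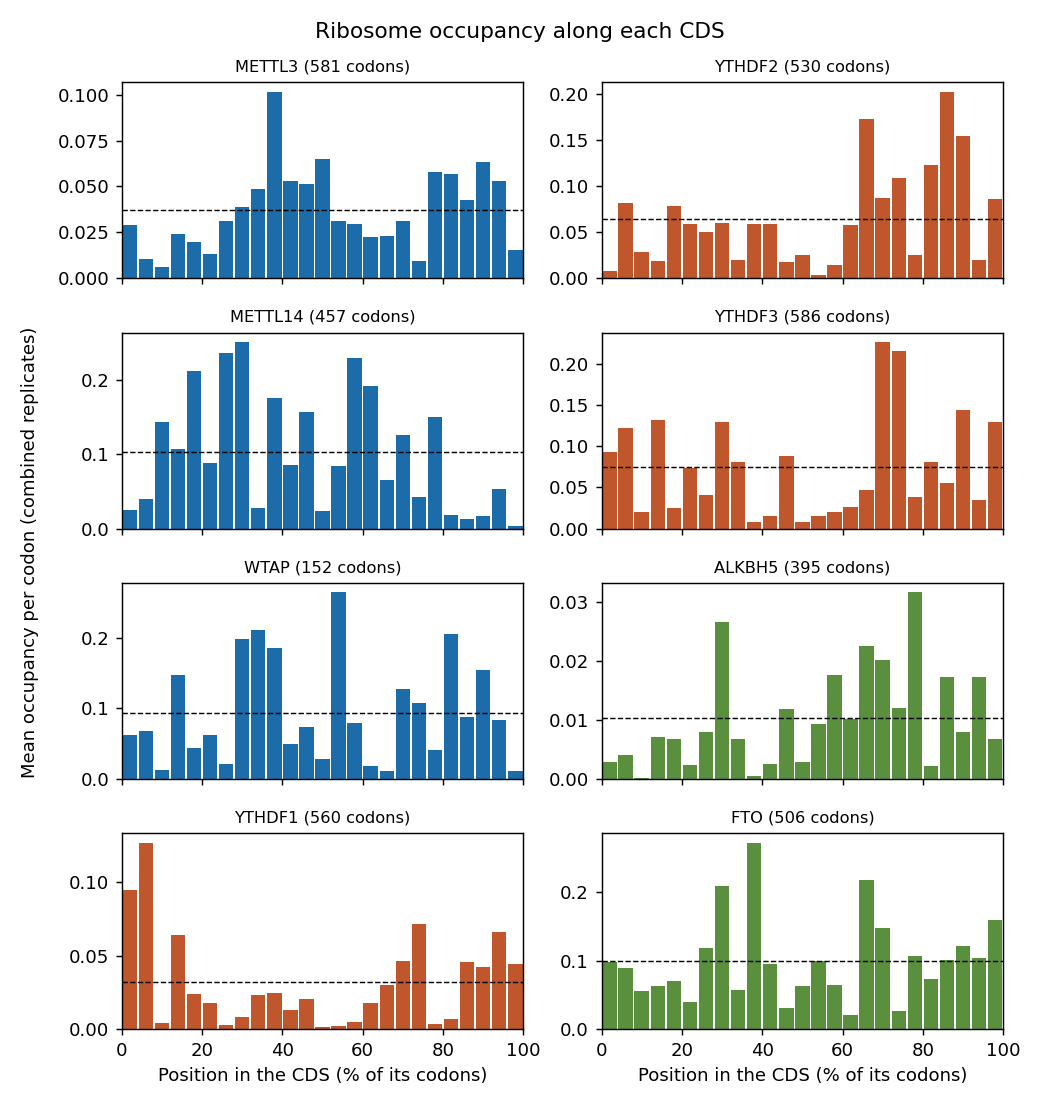
Mean occupancy per codon in 25 equal parts of the CDS (x axis, percent of its codons) for the 8 members in the occupancy table, replicates combined, with the CDS mean as a dashed line and a y axis of its own in each panel. METTL14 falls towards the end and METTL3 is low in its early parts. YTHDF2 is higher in later parts of its listed CDS, and YTHDF1 has its highest parts near the start.

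The 5′UTR of YTHDF2 held nearly as many in-frame RPFs per codon as its CDS. Its mean was 0.0627 over 98 codons, from 3339 RPFs, or 0.968 times the CDS mean (0.935 to 1.00; 0.910 to 1.05 over the steps), and 97.4% of transcripts had a ratio at or below it. The signal was not spread evenly. Codons 29 to 13 before the start codon held 94.3% of these reads, with 1.31 at codon 28, 1.14 at codon 22 and 0.885 at codon 17 before the start codon, while the start codon of the listed transcript had no RPF at all. The 12 codons on either side of where the listed CDS begins had a mean of 0.00893, 0.138 times the CDS mean.

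The listed YTHDF2 transcript is the shorter of the annotated forms, with 530 codons against 580 in the longest one, stop codon included. GENCODE transcripts with the longer CDS read the last 32 codons of this 5′UTR as coding sequence in the same frame. Those 32 codons held 96.3% of the 5′UTR reads at a mean of 0.185, 2.85 times the CDS mean, and the other 66 codons had a mean of 0.00346, 0.0534 times the CDS mean. This stretch is shown because it holds the highest 5′UTR codon of any member, in capitals, 28 codons before the listed start.
YTHDF2 upstream codon, chr1:29064773-29064799, plus strand: caaaatggatctGTAcatcaaaaggat
RPFs of the shorter and the longer form cannot be told apart in these codons.

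In the other members the in-frame occupancy of the 5′UTR was far below that of the CDS. The occupancy values used here count only RPFs in the frame of the CDS. Ribosomes in other frames of the 5′UTR are therefore not seen. METTL14 had a ratio of 0.135 (0.102 to 0.176) from 55 RPFs, 19 of them at 1 codon, 28 before the start, where the occupancy of 0.247 was 2.40 times the CDS mean. ALKBH5 had 0.101 (0.0856 to 0.117) from 160 RPFs over 227 listed codons, against 138 codons in the matched GENCODE 5′UTR. Of these RPFs, 91 fell in codons 75 to 65 before the start codon and 52 in codon 68 alone. That codon, at 0.0799, was 7.74 times the mean of the sparsely occupied ALKBH5 CDS, and the 5 codons next to the ALKBH5 start codon and the start codon itself had no read. YTHDF3 had 0.0738 (0.0589 to 0.0912) from 85 RPFs, with its highest value, 0.112, also 28 codons before the start.

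Close to the start codon lay the in-frame upstream reads of WTAP and YTHDF1. WTAP had a ratio of 0.0351 (0.0306 to 0.0400), and 211 of its 224 5′UTR RPFs were in the last 9 codons; without the 5 codons next to the start the ratio was 0.00594. YTHDF1 had 13 RPFs and a ratio of 0.0192 (0.0102 to 0.0328), with 11 of the reads in the last 4 codons. METTL3 had 3 RPFs in 47 codons (0.00770, interval 0.00159 to 0.0225). FTO had 0 in-frame RPFs in 70 codons, and 22.9% of transcripts also had none. With 3 reads taken as the limit of a count of 0, this allows a ratio of up to 0.00491 over those 70 codons. The matched GENCODE transcript of FTO has a 5′UTR of only 9 codons. Over these the limit would be higher, and it was not computed. The median ratio over all transcripts was 0.0286, and 2.50% of transcripts reached a ratio of 1.

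**Figure D5:**
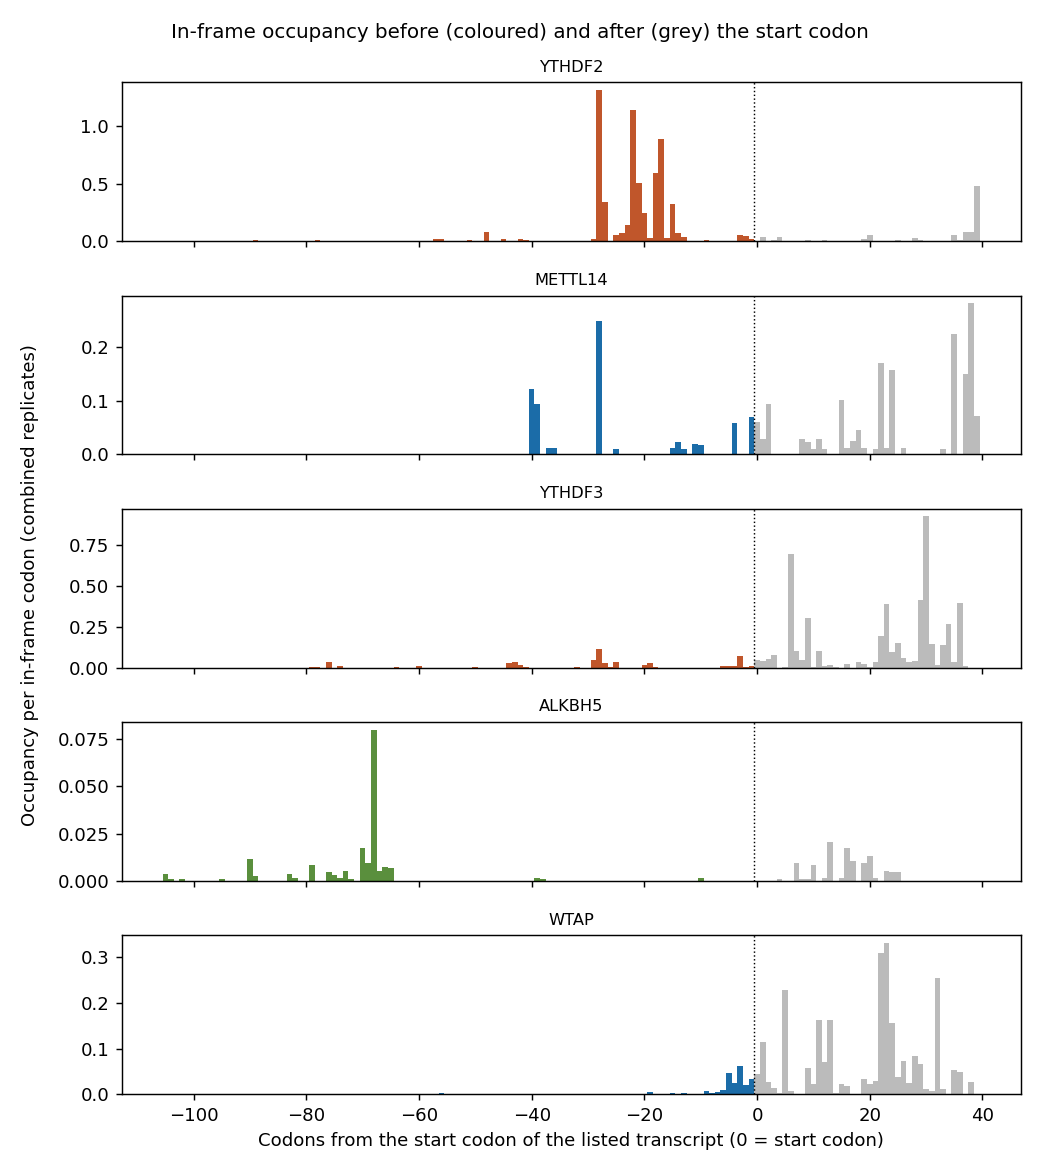
In-frame occupancy at each codon (y axis, combined replicates, an axis of its own in each panel) from 105 codons before the start codon to 40 codons into the CDS for 5 members, coloured before and grey from the start codon on; the farther part of the ALKBH5 5′UTR is not drawn. YTHDF2 has its block 29 to 13 codons before the start, ALKBH5 around codon 68, METTL14 single codons at 40, 39 and 28, and WTAP a run next to the start codon.

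Start codons themselves were unevenly occupied. YTHDF1 had 20 RPFs there, 2.73 times its CDS mean, METTL3 had 16 (1.70 times) and FTO 13 (1.53 times), against 7 in YTHDF3 (0.663 times), 5 in METTL14 (0.586 times) and 44 in WTAP (0.474 times). YTHDF2 and ALKBH5 had 0, as did 40.4% of all transcripts. In the 3′UTR the members had 1 to 8 in-frame RPFs except WTAP, which had 43 over 356 codons, a ratio to its CDS of 0.00128. The WTAP transcript listed codes for 152 codons, stop codon included, where the longest annotated form has 397.

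WTAP and YTHDF2 share sequence with pseudogenes or other annotated genes. Of the 30-base stretches of the WTAP CDS 62.5% also occur in a transcript of another gene, and of the YTHDF2 CDS 39.3%, most often in the pseudogene YTHDF2P1. In the other 8 members the share was at most 1.28%, and no 30-base stretch was shared between members, YTHDF1, YTHDF2 and YTHDF3 included; shorter stretches were not compared. In WTAP the 89 codons whose surrounding 30 bases are shared had a mean occupancy of 0.113 and the 54 with none shared 0.0728, while in YTHDF2 the values were 0.0648 over 205 codons and 0.0653 over 316. How reads that fit several transcripts were assigned is not stated in the methods or labels, so the WTAP level is uncertain to that extent.

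The wider m6A genes, a list of 20 further subunits, readers and methyltransferases, lay on both sides of the median as well. Of the 19 with a TE value, 12 were called above and 4 below the median in the same limma fit and 3 were not called (CBLL1, METTL16 and METTL5), against 44.7% and 44.6% of all genes. Their median TE was 0.463. The 3 highest were RNA-binding proteins: HNRNPA2B1, proposed as a nuclear m6A reader, at 10.2 ± 0.532 (SD, n = 3), ELAVL1, which stabilises mRNAs, at 2.46 ± 0.259, and LRPPRC, a regulator of mitochondrial mRNAs, at 2.34 ± 0.138. The 3 lowest were RBM15 at 0.0861 ± 0.00247 and RBM15B at 0.115 ± 0.0111, the paralogous subunits that bring the writer complex to RNA, and FMR1, the fragile X protein, at 0.187 ± 0.0142. RBM15 and RBM15B were also low in CDS occupancy, with 13.9% and 2.15% of transcripts at or below them, whereas FMR1, at 81.5%, had a low TE and a high occupancy as FTO and YTHDF3 did. Of the 18 wider genes with an occupancy value, 14 were above the median transcript.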

How the data were processed

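RPF libraries (28 to 30 nt reads) and total RNA libraries from HEK293 lysates were trimmed with cutadapt 1.16 and mapped to hg19 by the authors; the submitters' processing notes also name Bowtie 1.1.2, TopHat2 2.1.1 and HTSeq 0.9.1. The deposited TE values are a linear ratio of RPF to total RNA, 1 per replicate, whose formula neither methods nor labels state. The methods give the mapped RPF reads of each replicate but not the depth of the total RNA. The deposited occupancy values, another unit, are RPFs normalised for library size and divided by the abundance (TPM) of the most abundant transcript, replicates combined. For their analysis the authors describe a filter on RPF number and CDS length. The deposited values also hold transcripts with a shorter CDS or without a CDS RPF, and these are part of the background here. Members and lists were chosen with earlier results of these data known. All 10 members are named; of the wider list the 3 highest and 3 lowest by mean TE; and per member the highest CDS and 5′UTR codon.

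TE was tested with limma 3.58.1 (R 4.3.3) on log2(TE + 0.01), with the median of all values as the reference. The added 0.01 understates differences of low genes. The fit was tested on simulated data. Replicates of log2 TE correlated at 0.987 to 0.989 across genes. RPFs were recovered at a relative tolerance of 1e-11, with 3 steps found for 98.8% of 9539 transcripts. Transcripts were matched to GENCODE 44 lifted to GRCh37 by symbol and CDS length (95.5% matched); its 5′UTR lengths differ from the table's, so upstream codons were counted back from the start codon. Alternatives changed the pseudocount, centring, low filter, replicates, windows and codons.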

Additional observations from a re-analysis of the deposited data

How the results depend on the processing

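The TE calls of the 8 members (5 above, 3 below) kept their side of the median and of the FDR of 0.05 under all 8 alternatives in pseudocount, centring, low filter and replicates. RPF and total RNA of one number come from one lysate and each TE is the ratio within that pair; with the replicate block (each replicate centred on its own median) 5 members and 12 wider genes were above and 3 and 4 below, with no call changed. Leaving out each replicate gave 5 to 5 and 3 to 3 members, 10 to 11 wider genes above (IGF2BP2 or PCIF1 lost) and 3 to 4 below (ZCCHC4 lost without replicate 1 or 2). Centring on the mean of log2 values, which moves all differences by -0.17, gave 9 wider genes above and 6 below. Chosen after the data were seen, leaving out genes that share over 30% of their CDS 30-mers left 3 of 6 members and 7 of 14 wider genes above, since WTAP, YTHDF2 and 5 wider genes called above were removed. The last to first ratio of YTHDF3 was 0.801 with windows of 50 codons. Of the other member values, 12 of 24 window ratios, 16 of 24 CDS means and 8 of 16 5′UTR ratios moved beyond the counting interval, all 8 CDS means among them when the median over codons replaced the mean. Occupancy has no replicate error, and ratios from few RPFs, such as the 3 in the METTL3 5′UTR, are limited by depth.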
